A study of Mus musculus with 3 samples.

Results

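The genes described here are those of macroautophagy and of lysosome acidification, as read out in 3 sorted populations of mouse bone marrow. They were taken from the table of normalized counts by name: every Atg gene with a number, every gene of the V0 and V1 sectors of the vacuolar ATPase (names beginning Atp6v0 or Atp6v1), Lamp1 to Lamp3, and 13 further genes of the pathway from Ulk1 to Wipi1. The rule found 56 of 23393 named rows, and 46 of these had a mean of at least 50 over the 3 libraries and were compared. Of the 56, 30 were autophagy genes, 23 belonged to the vacuolar ATPase and 3 to the LAMP family. All 30 autophagy genes passed the filter, against 14 of the 23 ATPase rows and 2 of the 3 LAMP genes. The lowest mean inside the filter was 104, for Atg9b, and the highest outside it was 7.67, for Atp6v0e2.

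All cells came from bone marrow of C57BL/6 mice, and the labels give Map17-GFP+ or Map17-GFP- under genotype, a reporter whose construct they do not describe. GFP+ and GFP- hematopoietic stem cells (HSCs) were sorted from the LSK compartment (lineage-negative, Sca-1+ and c-Kit+) as CD48- CD150+ cells. Multipotent progenitors (MPPs), the offspring of stem cells that feed all blood lineages, were LSK, CD48+, CD150- and GFP-. There was 1 library for each population. The sources used here do not give the age of the mice or how many a library pools. A level below is the normalized count of a gene in 1 library, and a fold is the ratio of 2 levels. A ratio on the log2 scale was computed after adding 5 to both levels. With 1 library a population no test and no p-value was possible, so every difference below is between these libraries, and no spread between replicates stands behind it. In sorted bulk samples, fewer cells that hold a transcript and less of it in each cell cannot be told apart.

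Autophagy wraps part of the cytoplasm, such as an ageing mitochondrion, in a double membrane and delivers it to the lysosome for breakdown. The ULK kinase complex starts the process, the Beclin lipid kinase complex marks the site, Atg9 and Atg2 supply lipid, and 2 conjugation reactions attach proteins of the Atg8 family (LC3 and GABARAP) to the growing membrane. The vacuolar ATPase is a rotary proton pump: its cytosolic V1 sector hydrolyses ATP and its membrane V0 sector carries protons into the lysosome. Adult stem cells are known to depend on autophagy to clear mitochondria and to withstand starvation, and FoxO factors are known to keep its genes expressed there.

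The 2 HSC libraries and the MPP library differed little for most of these genes, and 9 genes were at least 1.5-fold apart. Map1lc3a, Gabarapl1, Ulk1 and Rb1cc1 of the autophagy genes and Atp6v1g2 and Atp6v0a1 of the ATPase exceeded MPPs by 1.5-fold or more in GFP- HSCs. Map1lc3b and Atp6v1a joined them in GFP+ HSCs. Atg9b alone was at least 1.5-fold lower in HSCs, in both fractions. At a 2-fold threshold, 2 of the 46 genes were higher and 1 lower in GFP- HSCs than in MPPs, whereas 11.6% and 5.53% of all 11951 genes past the filter were. For GFP+ HSCs against MPPs the counts were 2 higher and 0 lower, beside 13.7% and 8.6% of all genes. When all genes were limited to means of 200 or more, their shares were 8.3% and 4.37% for GFP- HSCs and 10.2% and 7.65% for GFP+ HSCs. A 1.5-fold threshold gave 6 genes higher (all genes 19.3%) and 1 lower (all genes 13.4%) in GFP- HSCs. In GFP+ HSCs it gave 8 higher (all genes 22.3%) and 1 lower (all genes 17.9%).

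In the values as deposited, more autophagy genes were higher than lower in HSCs, and more ATPase genes were lower than higher. With each other scaling tried, most ATPase genes were higher. Of 30 autophagy genes, 20 were higher in GFP- HSCs than in MPPs and 21 in GFP+ HSCs, where 49.2% and 50.7% of all genes were higher and 50.6% and 49.2% lower. Both HSC fractions were higher for 24 of the 46 genes and lower for 17, and each way for 45.7% of all genes. The median log2 ratios of the autophagy genes were 0.14 and 0.19, beside -0.01 and 0.01 for all genes. Of the 14 ATPase genes, 4 and 6 were higher, with medians of -0.04 and -0.01. These splits moved with the scaling. With libraries rescaled to the same upper quartile, which shifted the median of all genes to 0.10 and 0.11, 25 of 30 autophagy and 10 of 14 ATPase genes were higher in GFP- HSCs, beside 58.2% of all genes. The same rescaling gave 25 and 11 in GFP+ HSCs, beside 57.0%. Equal totals, removal of the trend with abundance and removal of the trend with length and GC content each gave 9 ATPase genes higher in GFP- HSCs. In GFP+ HSCs these settings gave 10, 10 and 11. For the autophagy genes they gave 22, 21 and 20 in GFP- HSCs and 25, 22 and 20 in GFP+ HSCs, and for all genes 55.2%, 50.4% and 49.1% and 55.6%, 50.6% and 50.8%. Both comparisons share the MPP library, so the HSC fractions are not independent of each other here.

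**Figure D1:**
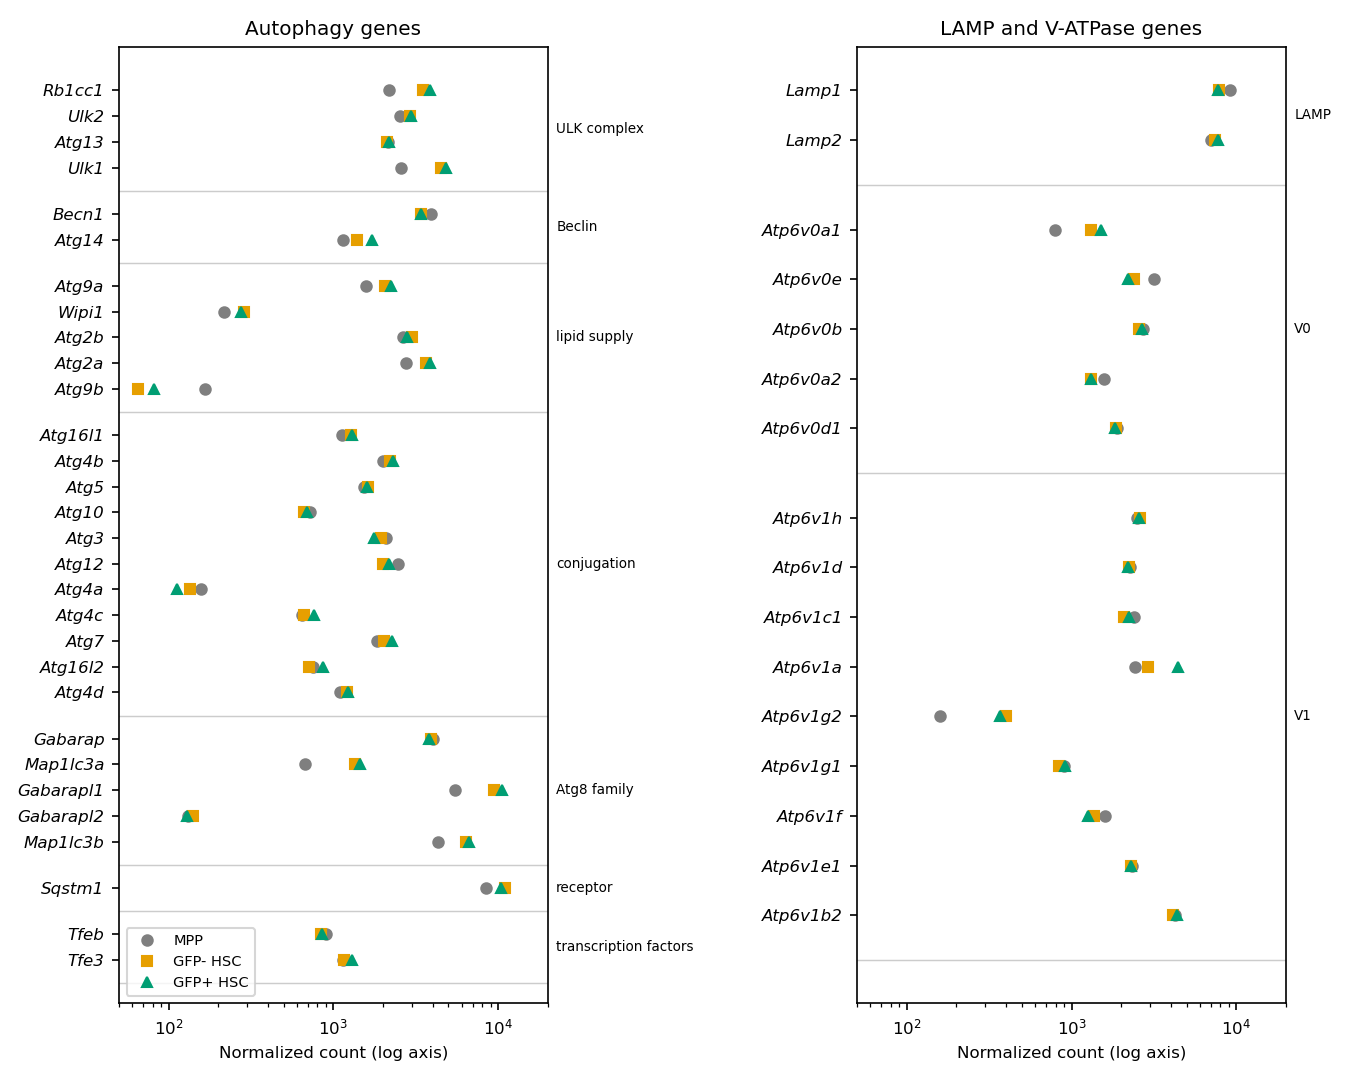
Level of each gene past the filter in the 3 libraries (normalized count, log axis), arranged by role. Grey circles are MPPs, orange squares GFP- HSCs and green triangles GFP+ HSCs, 1 library each with no error bar. Most genes have the 3 symbols close together, and Ulk1, Rb1cc1, Map1lc3a, Gabarapl1, Atp6v0a1 and Atp6v1g2 have the MPP symbol well to the left.

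Of the ULK complex, Ulk1 and Rb1cc1 were higher in both HSC fractions, while Atg13 was level. Ulk1, the kinase that starts autophagosome formation, stood at 2559 in MPPs against 4507 in GFP- and 4812 in GFP+ HSCs. That is 1.76-fold and 1.88-fold above MPPs, and both HSC libraries lay together. Rb1cc1, which encodes the scaffold FIP200 of the same complex, stood at 2179, 3496 and 3886, so its log2 ratios to MPPs were 0.68 and 0.83. Ulk2, the paralog of Ulk1, was closer, at 2540, 2922 and 2951. Atg13, the adaptor between kinase and scaffold, was level at 2136, 2105 and 2166. Atg101, the remaining subunit, carries an older name in the table (9430023L20Rik) and so falls outside the rule; it stood at 1430, 1310 and 1251. Per kilobase of transcript, Ulk1 made up 52.6% of the Ulk1 and Ulk2 total in MPPs against 63.0% in GFP- and 64.2% in GFP+ HSCs. Ulk1 lies on chromosome 5 from 110784488 to 110810097 and Rb1cc1 on chromosome 1 from 6206197 to 6276648 (GRCm38, the assembly also called mm10). Removing the trend that ratios showed with transcript length and GC content lowered the log2 ratios of Ulk1 from 0.82 to 0.64 and from 0.91 to 0.68, and those of Rb1cc1 from 0.68 to 0.50 and from 0.83 to 0.62.

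The Beclin genes went different ways. Becn1, the regulatory subunit of the autophagy lipid kinase, stood at 3901 in MPPs against 3388 in GFP- and 3398 in GFP+ HSCs, and was thus lowest in the HSC fractions. Of its exon bases, 43.9% are shared with Cntd1 on the opposite strand (940, 855 and 723). The libraries do not mark the strand, so reads of the overlap cannot be assigned. Atg14, the subunit that directs this kinase to autophagy, stood at 1149, 1386 and 1713, in the order MPP, GFP- HSC and GFP+ HSC. GFP+ HSCs exceeded MPPs by 1.49-fold, just under the 1.5-fold threshold, and GFP- HSCs by 1.24-fold.

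Of the genes that bring lipid to the membrane, 4 of 5 were higher in both HSC fractions by less than 1.5-fold, although Atg2b was lower in both, at -0.04 and -0.21, once the trend with length and GC content was removed. Atg9a, the scramblase of the seed vesicles, stood at 1572, 2068 and 2223, with 31.8% of its exon bases shared with a predicted gene on the same strand. Of the 50-base words of the Atg9a transcript, 42.6% also occur in other genes. Atg2a, a lipid transfer protein, stood at 2748, 3669 and 3857, and Atg2b at 2641, 3023 and 2812. Wipi1, which binds the phosphoinositide made by the Beclin complex, was low at 218, 286 and 275. Atg9b, the second Atg9 gene, ran the other way at 166 in MPPs against 65 in GFP- and 81 in GFP+ HSCs. It was 2.55-fold and 2.05-fold lower in the HSC fractions. With 5 added to both levels the log2 ratio in GFP+ HSCs was -0.99, just short of the 2-fold threshold. Per kilobase Atg9b made up 10.2% of the Atg9 total in MPPs and 3.29% and 3.79% in GFP- and GFP+ HSCs.

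The conjugation machinery differed little. All 11 genes lay between log2 ratios of -0.47 and 0.30 to MPPs in both HSC fractions. In each of the 3 comparisons 0 of 11 passed 1.5-fold. Of all genes, 19.3% passed it upward and 13.4% downward for the GFP- fraction against MPPs. The GFP+ fraction against MPPs gave 22.3% and 17.9%. Between the HSC fractions these shares were only 2.44% and 3.0%, so 0 of 11 is near that of all genes there. Atg5, which is coupled to Atg12, stood at 1531, 1617 and 1611. Atg7, the activating enzyme of both reactions, stood at 1846, 2038 and 2273. Atg16l1, which targets the coupled pair to membranes, stood at 1135, 1273 and 1297, and its paralog Atg16l2 at 756, 711 and 864. Atg12 (2453, 2015 and 2166) and Atg3, the transfer enzyme for Atg8 proteins (2084, 1935 and 1775), were lower in HSCs, except that Atg3 in GFP- HSCs moved just above 0, to at most 0.02, with equal upper quartiles or the length and GC trend removed. Among the Atg4 proteases, which trim and release Atg8 proteins, Atg4b held 51.1% to 52.7% of the family total per kilobase in the 3 libraries. Atg4a was the lowest, at 157, 135 and 112, but 63.6% of the 50-base words of its transcript also occur in its pseudogene or in another gene, so its count is uncertain.

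The Atg8 family had the highest median ratios to MPPs of the role groups, 0.55 in GFP- and 0.63 in GFP+ HSCs. Gabarapl1 stood at 5486 in MPPs against 9414 in GFP- and 10558 in GFP+ HSCs, or 1.72-fold and 1.92-fold above MPPs. Map1lc3a (LC3A) stood at 668, 1361 and 1459, or 2.04-fold and 2.18-fold above MPPs, and was the only autophagy gene to stand more than 2-fold above MPPs in either HSC fraction. Map1lc3b (LC3B) stood at 4334, 6349 and 6706, or 1.46-fold and 1.55-fold above MPPs. For these 3 genes both HSC libraries were high and the MPP library low. Gabarap was level at 4008, 3939 and 3814, and so was Gabarapl2 at 130, 140 and 129. Of the 50-base words of Gabarapl2, 17.0% are found in other genes.

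On the scale of level per kilobase, the makeup of the family differed between MPPs and HSCs. Gabarapl1 went from 36.3% of the family total in MPPs to 43.8% in GFP- HSCs and 46.2% in GFP+ HSCs. Gabarap went from 35.7% to 24.7% and 22.5%, while Map1lc3b kept 19.8% to 20.4%. The 5 genes together summed to 14626 in MPPs against 21203 in GFP- and 22666 in GFP+ HSCs, a difference of 1.45-fold and 1.55-fold. Gabarapl1 (chromosome 6, 129533160 to 129542346) shares 28.3% of its exon bases with 1700101I11Rik on the opposite strand, which stood at 80, 127 and 116 and so was small beside it. Map1lc3a (chromosome 2, 155276297 to 155278073) shared none of its exon bases or 50-base words with other annotated genes.

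Among cargo receptors and regulators in the gene set, Sqstm1 (p62), which carries ubiquitinated cargo to LC3, was the most abundant. It stood at 8410 in MPPs against 11029 in GFP- and 10387 in GFP+ HSCs, or 1.31-fold and 1.24-fold above MPPs. It shares 17.3% of its exon bases with Mrnip on the opposite strand (489, 292 and 288, listed as 3010026O09Rik). Tfeb and Tfe3 encode the factors that switch on lysosome and autophagy genes. Tfeb was level at 902, 840 and 856, and Tfe3 at 1144, 1153 and 1301. Their log2 ratios to MPPs lay between -0.10 and 0.18.

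**Figure D2:**
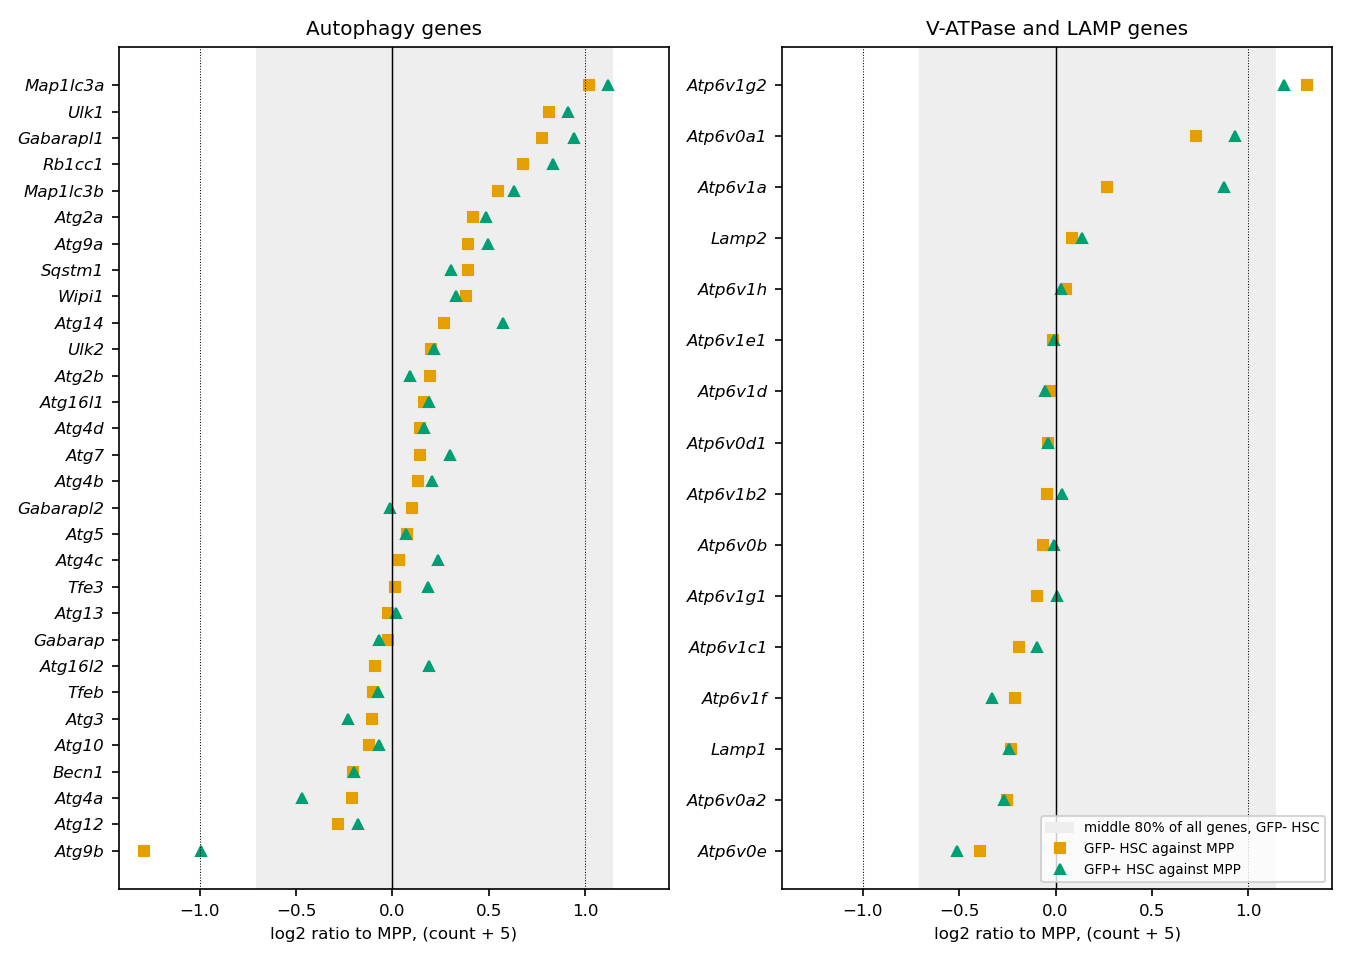
Log2 ratio of each gene to MPPs after adding 5 to both levels, for GFP- HSCs (orange squares) and GFP+ HSCs (green triangles). The grey band is the middle 80% of all genes for GFP- HSCs, from -0.71 to 1.14, and dotted lines mark 2-fold. Genes are sorted by the GFP- ratio, with Map1lc3a and Atp6v1g2 at the top of the panels and Atg9b at -1.29 at the bottom of the first.

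Of the 14 vacuolar ATPase genes past the filter, 6 were nearly level across the libraries. These were Atp6v1b2, Atp6v1d, Atp6v1e1, Atp6v1h, Atp6v0b and Atp6v0d1, which lay within log2 ratios of -0.07 and 0.06 in both comparisons with MPPs. Atp6v1e1, part of the stalk that holds the motor still, stood at 2323, 2298 and 2312. Atp6v1b2, the regulatory nucleotide-binding subunit, stood at 4257, 4126 and 4352. Atp6v0d1, which links the central stalk to the proton ring, stood at 1899, 1850 and 1846. The genes lowest in HSCs were Atp6v0e (3153, 2402 and 2212), Atp6v0a2 (1572, 1317 and 1307) and Atp6v1f (1586, 1372 and 1262), which were 1.16-fold to 1.43-fold below MPPs. Atp6v1f was instead above MPPs, at 0.12 and 0.09, once the trend with length and GC content was removed. Summed over its 13 rows the V1 sector stood at 18808, 18882 and 20621, and the V0 sector over 10 rows at 10127, 9482 and 9580.

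The 3 ATPase genes at least 1.5-fold above MPPs were Atp6v1a, described with the HSC fractions, and a form each of subunits a and G. Subunit a, which sets where the pump sits in the cell, is encoded by Atp6v0a1, Atp6v0a2, Atp6v0a4 and Tcirg1, the last of which the name rule does not cover. Atp6v0a1 stood at 792 in MPPs against 1316 in GFP- and 1513 in GFP+ HSCs, or 1.66-fold and 1.91-fold above MPPs. Tcirg1 (a3) was lower in HSCs, at 3344, 2356 and 2720. Per kilobase, Tcirg1 held 69.1% of the subunit a total in MPPs and 57.4% and 59.0% in GFP- and GFP+ HSCs, while Atp6v0a1 went from 12.4% to 24.3% and 24.9%. Atp6v0a4, known from kidney, was listed at 1, 0 and 0.

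In subunit G, 1 form was higher in HSCs and the other was level. Atp6v1g2, known as the neuronal form, stood at 158 in MPPs against 398 in GFP- and 366 in GFP+ HSCs, or 2.52-fold and 2.32-fold above MPPs. Atp6v1g1, the ubiquitous form, was level at 903, 844 and 908, with 19.2% of its 50-base words also in other genes. Per kilobase Atp6v1g2 made up 11.5% of the subunit G total in MPPs against 25.9% in GFP- and 23.0% in GFP+ HSCs. It shares 5.74% of its exon bases with Nfkbil1 on the opposite strand (648, 640 and 592). Atp6v0a1 lies on chromosome 11 from 101009452 to 101063719 and Atp6v1g2 on chromosome 17 from 35233660 to 35238767.

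The other tissue-restricted forms were listed at 0 or at low levels in all 3 libraries. Atp6v1b1, Atp6v1e2 and Atp6v1g3 were listed at 0 throughout. Atp6v1c2 stood at 0, 2 and 7 beside 2383, 2092 and 2230 for Atp6v1c1, Atp6v0d2 at 2, 6 and 0, and Atp6v0e2 at 2, 10 and 11, in the order MPP, GFP- HSC and GFP+ HSC. For subunits B, C, d, E and e the ubiquitous gene held 99.2% or more of the listed total per kilobase. Atp6v0c, which encodes the proton-binding ring, was listed at 1, 0 and 0 although the pump cannot be built without it, and its pseudogene row Atp6v0c-ps2 at 0. Of the 50-base words of Atp6v0c, 32.5% also occur in its pseudogenes, as do 90.1% of those of Atp6v0c-ps2. The sources used here do not give how reads with several matches were counted, and none of the zeros listed here need mean absence, including those behind the shares of subunits B, C, d, E and e.

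**Figure D3:**
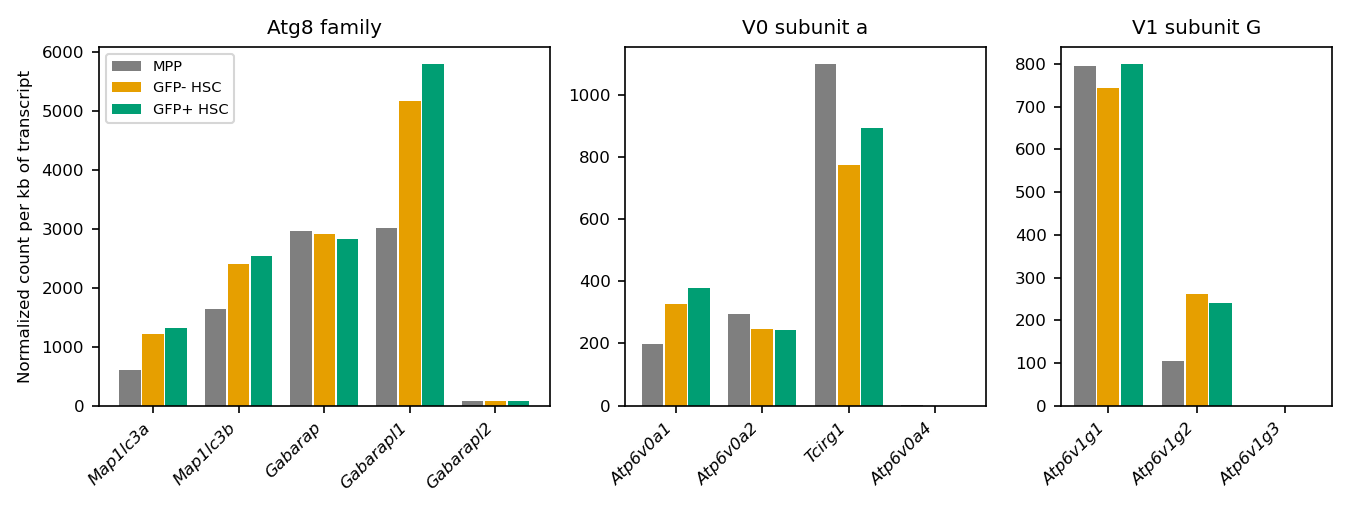
Level per kilobase of the longest coding transcript for the Atg8 family, subunit a of V0 and subunit G of V1 (bars from 0, 1 library each, no error bar). Gabarapl1, Atp6v0a1 and Atp6v1g2 are higher in both HSC fractions than in MPPs, while Gabarap and Atp6v1g1 are level and Tcirg1 is lower.

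Lamp1 and Lamp2 were abundant and differed little between the libraries. Lamp1 stood at 9165 in MPPs against 7812 in GFP- and 7756 in GFP+ HSCs, and Lamp2 at 7046, 7465 and 7756. Both encode heavily glycosylated proteins that line the inner face of the lysosome membrane, and Lamp2 also serves in chaperone-mediated autophagy. Per kilobase Lamp1 held 67.8% of the LAMP total in MPPs and 62.9% and 61.8% in GFP- and GFP+ HSCs. Lamp3, known from dendritic cells, was listed at 2, 0 and 2.

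The 2 HSC fractions, compared to ask how the Map17 reporter divides cells of the same stem cell gate, were at least 1.5-fold apart in 1 gene of the set. Atp6v1a, the catalytic subunit that hydrolyses ATP, stood at 4435 in GFP+ HSCs, 2909 in GFP- HSCs and 2414 in MPPs. It was 1.52-fold higher in GFP+ than in GFP- HSCs, and 1.84-fold and 1.21-fold above MPPs. At a 1.5-fold threshold, 1 of 46 genes was higher (all genes 2.44%) and 0 lower (all genes 3.0%). At 2-fold, 0 of 46 were higher and 0 lower (all genes 0.41% and 0.87%, or 0.0875% and 0.554% of genes with means of 200 or more). A share of 1 in 46 is near that of all genes. The log2 ratio of Atp6v1a was 0.61 and ranged from 0.59 to 0.61 over all alternative settings. The remaining 8 V1 genes lay between -0.12 and 0.10, so the gene stood apart from its partners in the same sector. Atp6v1a (chromosome 16, 44085402 to 44139705) shares no exon base with another annotated gene and 0.956% of its 50-base words.

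The other genes of the set were close between the fractions. Of 30 autophagy genes, 22 were higher (all genes 51.7%) and 8 lower (all genes 47.8%) in GFP+ HSCs, and their median log2 ratio was 0.06, beside 0.01 for all genes. The 3 highest were Atg14 at 0.30, Atg9b at 0.30 and Atg16l2 at 0.28. The 3 lowest were Atg4a at -0.26, Atg3 at -0.12 and Gabarapl2 at -0.11. Among ATPase genes 7 of 14 were higher, with a median of 0.00 (9 of 14 with the trend in length and GC content removed), and after Atp6v1a came Atp6v0a1 at 0.20 and Atp6v1g1 at 0.10. All 4 ULK complex genes of the set were higher in GFP+ HSCs as deposited (all genes 51.7%), by log2 ratios of 0.01 to 0.15. Ulk2 was below 0, at -0.02, once the trend with length and GC content was removed. Atg101, the subunit outside the name rule, was lower in GFP+ HSCs, at -0.07. The median absolute log2 ratio was 0.09 over the 46 genes and 0.14 over all genes, which were not matched to the 46 for level.

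**Figure D4:**
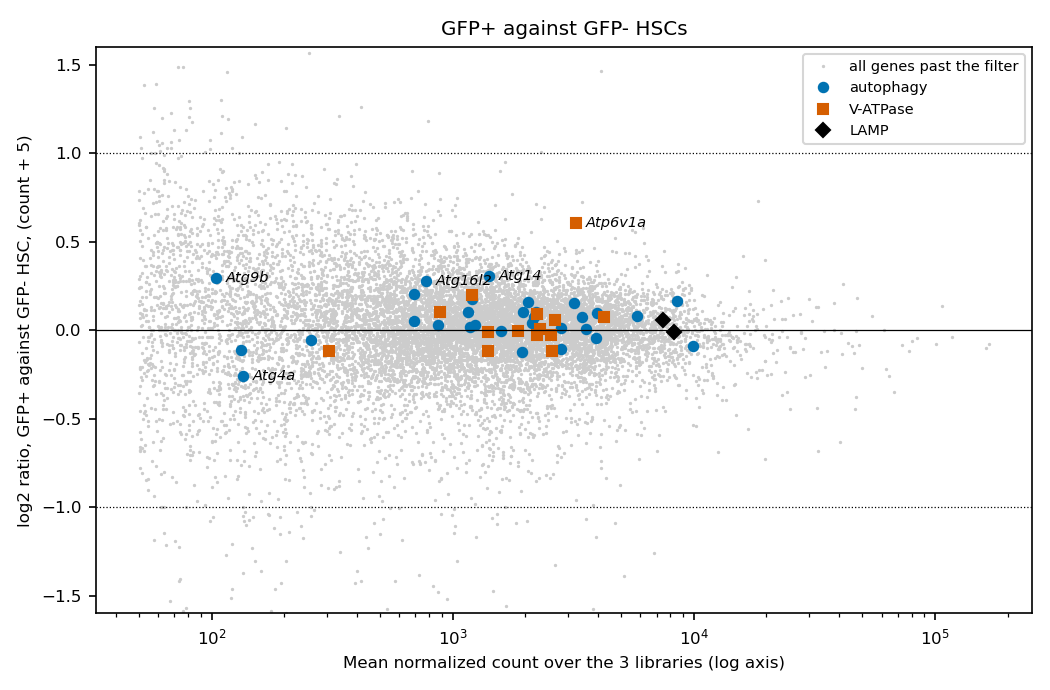
Log2 ratio of GFP+ to GFP- HSCs against the mean level over the 3 libraries (log axis), with all genes past the filter in grey and the 46 genes in colour. Dotted lines mark 2-fold, and 21 genes lie outside the vertical axis. Atp6v1a at 0.61 is the only coloured symbol above 0.31.

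Promoters were searched for the letters of the E-box that TFEB and TFE3 bind, since Atp6v1a and other pump genes are known targets of these factors. The windows came from RefSeq (GRCm38.p6) and run from 250 bases before to 50 after a gene's start. Windows were at hand for 44 of the 56 genes. The 6-letter form CACGTG and the 8-letter form TCACGTGA, which contains it, read the same on both strands. CACGTG was found in 9 of 36 genes past the filter that have a window (25.0%), beside 12.1% of all genes past the filter and 8.09% of all genes. It was in 4 of 9 ATPase genes, 4 of 25 autophagy genes and Lamp1. TCACGTGA was found in Atp6v1a, Atp6v0d1, Atp6v0e and Atg3, that is 4 of 36 (11.1%), beside 2.30% and 1.12%. The 10-letter CLEAR palindrome, which contains both, was found in 0 of 36, beside 0.856% of all genes past the filter and 0.37% of all genes. Of the lysosome enzyme and membrane genes listed below, 11 of 32 (34.4%) held CACGTG and 6 of 32 (18.75%) held TCACGTGA. These matches are letters in a window and were not tested for binding.

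Atp6v1a was the 1 gene of 46 past 1.5-fold between the HSC libraries, a share near that of all genes. Shown first is a stretch before its RefSeq start, at chr16:44139306-44139461 on the minus strand (GRCm38.p6). The GENCODE gene begins farther upstream, so the stretch lies inside its span, between the first exons of its transcripts, and holds no annotated exon. It is written 5′ to 3′, and has the 8-letter form in capitals.
Atp6v1a: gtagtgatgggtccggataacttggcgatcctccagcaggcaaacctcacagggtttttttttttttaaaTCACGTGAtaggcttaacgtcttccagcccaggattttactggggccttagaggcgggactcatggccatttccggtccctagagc

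For comparison, windows of 30 bases around the E-box are given for the other 3 genes with the 8-letter form and for the first of 4 copies in Lamp1, with CACGTG in capitals. They lie at chr8:105566050-105566079 (minus strand) for Atp6v0d1, chr17:26676387-26676416 (plus strand) for Atp6v0e, chr16:45158746-45158775 (plus strand) for Atg3 and chr8:13159088-13159117 (plus strand) for Lamp1.
Atp6v0d1: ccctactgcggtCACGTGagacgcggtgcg
Atp6v0e: tagcgcgccgatCACGTGagcctctgttga
Atg3: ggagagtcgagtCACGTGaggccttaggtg
Lamp1: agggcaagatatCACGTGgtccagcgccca

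Genes that share the E-box did not share a direction. Atp6v1a was higher in GFP+ HSCs than in MPPs, Atp6v0d1 was level, and Atp6v0e, Atg3 and Lamp1 were lower, with log2 ratios of 0.88, -0.04, -0.51, -0.23 and -0.24. Atg14, Atg7, Atg5 and Atp6v0b, which also hold CACGTG, had log2 ratios of 0.57, 0.30, 0.07 and -0.01 in the same comparison. Rescaling libraries or removing either trend turned the sign of Atp6v0d1, whose ratio then lay between 0.02 and 0.15. Of the 8 genes at least 1.5-fold above MPPs in an HSC fraction, 6 have a window. Atp6v1a held CACGTG in it, and Ulk1, Gabarapl1, Map1lc3b, Atp6v0a1 and Atp6v1g2 did not, where 12.1% of all genes past the filter did. Atg14, at 1.49-fold in GFP+ HSCs, falls just outside this count and held it. A link between the E-box and these ratios was not tested.

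**Figure D5:**
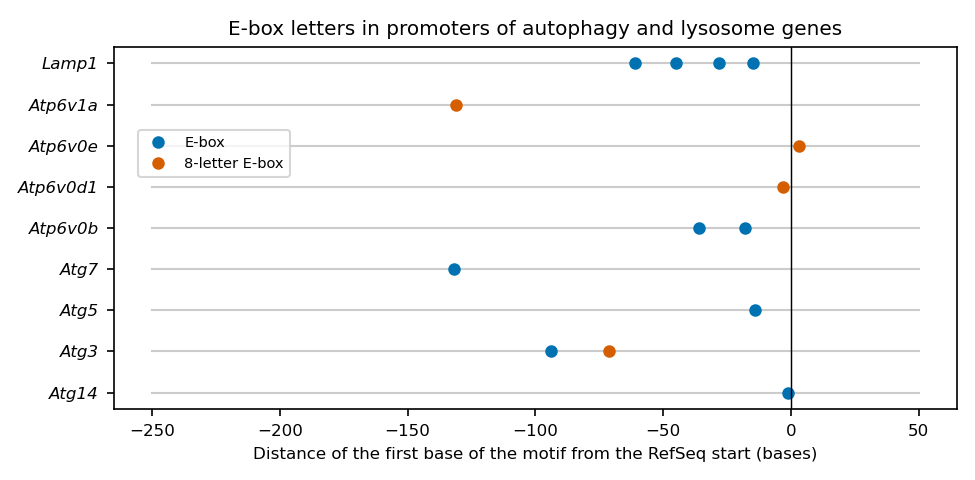
Distance of each CACGTG from the RefSeq start, in bases, for the 9 genes that hold it (grey lines are the window, from 250 before to 50 after). Orange points lie within the 8-letter form. Lamp1 has 4 copies, Atp6v0b and Atg3 have 2 each, and that of Atp6v1a lies 131 bases before the start.

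Other genes of autophagy, outside the name rule, were read from a fixed list, in which 18 genes passed the filter. In GFP- HSCs 14 of 18 were higher than in MPPs (all genes 49.2%) and 0 were 2-fold apart (all genes 11.6% higher and 5.53% lower). In GFP+ HSCs 12 of 18 were higher (all genes 50.7%), and 2 passed 2-fold, a share near the 13.7% of all genes: Stx17, the SNARE that fuses autophagosome and lysosome (915, 1805 and 1857), and Tecpr1, which acts at the same step (821, 1280 and 1798). Epg5, a tether for that fusion, stood at 869, 1345 and 1576. The lipid kinase gene Pik3c3 was nearly level at 1846, 1983 and 2208, and Uvrag was lower in HSCs at 3035, 2448 and 2361. Nrbf2 (293, 322 and 232), Wdr45 (1268, 1696 and 1505) and Rab7 (1093, 926 and 940) completed the extremes of the list.

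Cargo receptors and mitophagy genes were higher in HSCs in 11 of 13 cases for both fractions, beside 49.2% and 50.7% of all genes. Of the 13, 3 passed 2-fold in the GFP- fraction (all genes 11.6%) and 2 in the GFP+ fraction (all genes 13.7%), the latter a share near that of all genes. Their medians were 0.22 and 0.39. Wdfy3, a scaffold for clearing protein aggregates, stood at 1972, 4541 and 4550. Optn, a receptor for ubiquitinated mitochondria, stood at 292, 749 and 578, and Park2, the ubiquitin ligase Parkin, was low at 27, 106 and 147. Tax1bp1 was the most abundant of those at the extremes and was lower in HSCs, at 15067, 13438 and 13165. Calcoco1 (1933, 2245 and 2571), Fundc1 (2373, 2193 and 2446) and Ncoa4 (599, 638 and 585) differed little.

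Accessory and assembly factors of the ATPase went both ways. Dmxl2, a part of the assembly factor that joins V1 to V0, stood at 402 in MPPs against 964 in GFP- and 1052 in GFP+ HSCs, and its relative Dmxl1 at 1183, 1779 and 1769. Rogdi, another partner in that assembly, was 842, 362 and 333. The accessory subunit genes Atp6ap1 (4699, 4192 and 4366) and Atp6ap2 (5156, 3600 and 3384) were lower in HSCs, as was Rnasek (1442, 933 and 777). Ncoa7 (1975, 2404 and 2974) and Wdr7 (1142, 1162 and 1416) were highest in GFP+ HSCs. Of the 10 genes of this list past the filter, 5 were higher and 5 lower in each HSC fraction than in MPPs. Of all genes, 49.2% and 50.7% were higher in GFP- and GFP+ HSCs.

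Genes of upstream control had a median absolute log2 ratio to MPPs of 0.32 in GFP- and 0.45 in GFP+ HSCs, beside 0.37 and 0.45 for all genes. Of 31 genes, 19 were higher in GFP- HSCs and 18 in GFP+ HSCs than in MPPs, beside 49.2% and 50.7% of all genes. Of the 31, 4 and 5 passed 2-fold, shares near the 11.6% and 13.7% of all genes, and 0 lay that far below MPPs (all genes 5.53% and 8.6%). Foxo1, a transcription factor that activates autophagy genes, stood at 792, 1803 and 2419, whereas Foxo3 was lower in HSCs at 310, 248 and 207. Mitf, a relative of TFEB, stood at 94, 234 and 230. AMPK, the energy sensor that activates ULK1, differed in single subunits. Of the catalytic alpha forms, Prkaa2 stood at 158, 462 and 672 and the more abundant Prkaa1 at 2249, 2578 and 2471. Of the beta forms, Prkab2 stood at 223, 346 and 523 and Prkab1 at 3557, 3170 and 2137. The gene of its activating kinase, Stk11 (919, 538 and 582), and Lamtor4 of the lysosomal platform of mTORC1 (1101, 701 and 661) were lower in HSCs. Mtor itself, the kinase that restrains ULK1, was nearly level at 2918, 2813 and 2572. Between the HSC fractions Prkab2 was 1.51-fold higher in GFP+ cells, the only gene of this list past 1.5-fold. A share of 1 in 31 is near the 2.44% of all genes.

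Lysosome enzymes and membrane proteins were divided, with 17 of 41 higher in GFP- HSCs and 18 in GFP+ HSCs than in MPPs (all genes 49.2% and 50.7%) and medians of -0.07 and -0.06. The tetraspanin gene Cd63 (1346, 2796 and 2916) and the protease gene Ctsl (1082, 2034 and 2253) were highest relative to MPPs. Cd68 (743, 202 and 200), Lgmn (285, 87 and 105) and Psap, the precursor of sphingolipid activators (16763, 8661 and 6864), stood more than 2-fold below MPPs in GFP+ HSCs. That is 3 of 41 genes, a share near the 8.6% of all genes, and 2 of 41 stood that far above MPPs (all genes 13.7%). The aspartic protease gene Ctsd was level at 10544, 10041 and 9852. Igf2r (1441, 1127 and 1638) and Laptm4b (1896, 1050 and 1344) were the highest in GFP+ relative to GFP- HSCs, and Naglu (1305, 1355 and 1153) was among the lowest.

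Markers of the populations went with the labels: 8 stem cell genes summed to 9140 in MPPs against 42983 in GFP- and 53300 in GFP+ HSCs. Without Hlf (6417, 16871 and 19960) they summed to 2723, 26112 and 33340. The 6 progenitor genes summed to 229942, 19251 and 13420, or 94533, 16493 and 10670 without Mpo (135409, 2758 and 2750). Slamf1, the gene of CD150, and Cd48 belong to the sorting gates, so the direction of these genes was set by the sort. Macrophage and monocyte genes, which accompany lysosome genes in other marrow cells, were above 0 in 10 of 11 rows and summed to 9717, 6579 and 6644, most of it Lyz2 (6797, 5986 and 6173), with Marco at 0 in every library and the other 10 rows at 2920, 593 and 471. Megakaryocyte genes (6 rows, Gp6 at 0 in both HSC libraries) summed to 1870, 9406 and 5479, most of it Itga2b (1263, 7032 and 4095). The other 5 summed to 607, 2374 and 1384, with 3 of them higher and 2 lower in both HSC fractions. Neutrophil genes (10 of 10 above 0) summed to 16898, 1401 and 2047. Elane (16125, 557 and 425) carried the neutrophil sum in MPPs. The other 9 summed to 773, 844 and 1622, with 6 of them higher and 2 lower in both HSC fractions. Erythroid genes (6 of 8 above 0, both globin rows at 0) summed to 3622, 3193 and 2580, or 468, 1174 and 1000 without Tfrc (3154, 2019 and 1580). The globin zeros need not mean absence, since how reads with several matches were counted is not known. The summed levels of stroma and osteoclast genes (8 rows, 2 at 0 in MPPs and 2 in GFP+ HSCs) were 4304, 3126 and 3248, most of it Pecam1 (4053, 2304 and 2098). Without it they were 251, 822 and 1150, with 3 of the other 7 genes higher and 0 lower in both HSC fractions. Col1a2 stood at 28, 457 and 679 and Col1a1 at 17, 22 and 294. Cxcl12 (66, 187 and 29), Cdh5 (10, 10 and 3), Lepr (0, 10 and 0) and Ctsk (0, 4 and 0) were instead lower in GFP+ than in GFP- HSCs. B cell genes summed to 1291, 765 and 896 (182, 16 and 26 without Cd79b), and T and NK cell genes to 8276, 1610 and 904 (1843, 682 and 637 without Nkg7). Of the 4 T and NK cell genes other than Nkg7, 3 were lower and 1, Klrb1c (39, 281 and 266), was higher in both HSC fractions. The part of these cells in the differences above was not tested. Over all named rows the levels summed to 26689660, 25375047 and 25311805, and the sequencing depth behind them is unknown.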

How the data were processed

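RNA of 3 sorted populations was profiled, 1 library each; the SMART-seq v4 kit served for cDNA, per the labels' protocols, and this kit is known to copy full-length transcripts without marking the strand. The deposited values are normalized counts per gene, given by the authors as whole numbers and handled here as a score, and STAR, DESeq2 and mm10 are named in the submitters' processing notes. The sources used here do not give versions, annotation, counting tool or size factors, so reads and depth could not be recovered and no counting interval was computed. Of 23420 rows, 27 with a date in place of a name were left out.

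Ratios were log2 of (level + 5) in each library, for genes with a mean of at least 50. Genes at least 2-fold or 1.5-fold apart were counted and set beside all genes past the filter. No test was run. The genes, lists and thresholds were chosen with earlier results of these data known. All levels are given for genes at least 1.5-fold apart, for the 3 highest and 3 lowest ratios of the autophagy and ATPase genes in each comparison, for regulators and subunit forms, and for the 2 highest and 2 lowest of each further list; the remaining genes named were chosen after their values were seen. Lengths, coordinates, exon overlaps and shared 50-base words came from GENCODE M21 (GRCm38), using the longest coding transcript of each gene, with promoters from RefSeq. The last 20 bases of 46 of 52 promoter windows were found in a GENCODE transcript of the same gene. The ratio step was checked on simulated libraries. The settings varied were the pseudocount (1 or 20), the filter (a mean of 10, of 200, or no filter), the scaling (equal totals or equal upper quartiles), removal of the trend with abundance (lowess, fraction 0.3) or with length and GC content, a 1.5-fold threshold, and means for medians. Python 3.11.15, numpy 2.4.6, pandas 2.3.3, statsmodels 0.14.6 and matplotlib 3.10.9 were used.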

Additional observations from a re-analysis of the deposited data

How the results depend on the processing

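Medians and ratios that moved by under 0.1 on the log2 scale, and counts within 1.5 times, were taken as kept: 131 values that answer a comparison were kept and 19 moved, and of ratios of single genes 1112 were kept and 121 moved. For GFP+ HSCs against MPPs the count at least 2-fold higher was 4 with equal totals, 5 with equal upper quartiles, 4 with no filter and 8 at 1.5-fold, and the count lower was 1 with a pseudocount of 1, with either trend removed and at 1.5-fold. For GFP- HSCs against MPPs the count higher was 6 at 1.5-fold and the count lower was 0 at a minimum mean of 200. Equal upper quartiles moved the GFP- medians to 0.15 for all 46 genes, 0.25 for autophagy and 0.070 for the ATPase. The ATPase medians turned positive in both HSC fractions with length and GC content removed (0.15 and 0.18), with means in place of medians (0.073 and 0.13), and by smaller steps with equal totals and the abundance trend removed. Between the HSC fractions, 1 gene was 2-fold lower with no filter and 1 was higher at 1.5-fold. No paired analysis was possible because each population has 1 library, and for the same reason no replicate could be left out. No spread between sorts was measured, and the depth behind the values is unknown.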
